A study of Homo sapiens with 6 samples.

Results

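The genes described here encode 10 RNA-binding proteins that choose exons in muscle, out of 35793 genes listed in a table of RNA levels from human cardiomyocytes. They were taken by symbol: KHDRBS1, KHDRBS2, KHDRBS3, QKI, RBM20, RBM24, RBFOX1, RBFOX2, MBNL1 and CELF1. The set was chosen by gene function and by the genotype differences measured in these same libraries, KHDRBS3 above all, so the differences are given for these genes as a description, with no test. WTC11, an established human line of induced pluripotent stem cells, was differentiated, and cells were collected on day 15. The wild-type group was unedited WTC11 with 3 biological replicates. The other group, also with 3 replicates, was a WTC11 derivative in which CRISPR/Cas9 had been used to knock out both copies of STK25, a serine/threonine kinase. The labels name no treatment of either group. The knockout was 1 line, so the edit and any other difference between the lines cannot be told apart.

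Splicing regulators of this kind bind short motifs in pre-mRNA, mostly in introns beside an alternative exon, and promote or block its inclusion. KHDRBS1 (Sam68), KHDRBS2 (SLM1), KHDRBS3 (SLM2, also T-STAR) and QKI belong to the STAR family, which binds RNA through a KH domain. RBM20 and RBM24 are enriched in heart, and loss of RBM20 function changes titin isoforms and causes cardiomyopathy. RBFOX proteins bind UGCAUG, and MBNL1 and CELF1 act on many of the same muscle exons in opposite directions during heart development. The values here are totals per gene, so they give how much RNA each regulator had and not which exons were included.

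All 6 libraries held cardiomyocyte transcripts. The 12 cardiomyocyte markers summed to between 1326441 and 1647500 normalized counts in the wild type and between 1850265 and 3364832 in the knockout, where a normalized count is a read number divided by 1 factor per library, and limma called 0 of them higher and 3 lower. MYL7, an atrial myosin light chain, held the largest part of the knockout sum, with 2324410, 860614 and 1258031 normalized counts against 442989, 739950 and 441630 in the wild type. Over all tested genes limma called 5.97% higher and 6.79% lower. The 3 markers called lower were MYL2, the ventricular myosin light chain, NKX2-5, a cardiac transcription factor, and PLN, the calcium pump regulator. Without a call, TNNI3, MYH7, MYL7, ACTN2 and TTN were higher in every knockout library than in any wild-type library. MYH6 was lower in every knockout library, also without a call. The genotypes overlapped in TNNT2, TNNI1 and RYR2. MYL2 had 14296, 15833 and 14249 normalized counts in the wild type and 338, 79.1 and 109 in the knockout. The myosin heavy chain MYH6 had 149017, 91792 and 186498 in the wild type and 55128, 69496 and 61767 in the knockout. Its paralog MYH7 had 94111, 49595 and 136875 in the wild type and 177105, 291460 and 235317 in the knockout. Neither heavy chain was called, and whether the cells were atrial or ventricular was not tested. In bulk RNA, fewer cells of a type and less RNA per cell cannot be told apart. Of 8 skeletal muscle markers, MYOD1, MYF5, PAX7 and MYH1 had no read in any library, and MYH2 fell from 57.4, 30.5 and 22.3 to 2.54, 0 and 0 normalized counts. STK25 itself was at 8119 ± 1168 normalized counts in the wild type and 3720 ± 251 in the knockout (SD, n = 3 each), 45.8% of the wild-type mean. Reads assigned to genes ran from 22443904 to 53224112 per library. Wild-type replicate 2 and knockout replicate 1 stood apart from the other libraries of their genotypes in genes with short transcripts. In genes of the shortest length quartile the median log2 deviation from the genotype mean was 0.34 in wild-type replicate 2 and 0.33 in knockout replicate 1. The other 4 libraries lay between -0.26 and -0.05 by the same measure. In the longest quartile wild-type replicate 2 was at -0.177, against 0.076 and 0.115 in wild-type replicates 1 and 3. Knockout replicate 1 did not stand apart there, with -0.055 against 0.127 in replicate 2 and -0.046 in replicate 3.

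Promoter sequence is shown for KHDRBS2 and RBM20, because these had the highest knockout to wild-type ratios among the genes whose groups did not overlap, and for KHDRBS1 as the paralog with nearly level RNA. RefSeq promoter entries on GRCh38.p14 matched 7 of the 10 genes. Each sequence below is the 200 bases from 250 to 51 before the RefSeq start, written 5′ to 3′ on the strand of the gene, with CpG dinucleotides in capitals.
KHDRBS1, chr1:32013618-32013817, plus strand: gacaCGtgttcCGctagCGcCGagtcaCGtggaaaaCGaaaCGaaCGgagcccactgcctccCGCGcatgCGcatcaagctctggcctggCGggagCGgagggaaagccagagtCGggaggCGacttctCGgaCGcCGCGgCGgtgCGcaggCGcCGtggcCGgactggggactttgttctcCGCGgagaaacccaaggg
KHDRBS2, chr6:62286276-62286475, minus strand: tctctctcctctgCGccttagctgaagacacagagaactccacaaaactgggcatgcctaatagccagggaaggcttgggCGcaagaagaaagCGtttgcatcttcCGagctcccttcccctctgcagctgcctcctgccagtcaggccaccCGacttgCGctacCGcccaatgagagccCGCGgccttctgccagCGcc
RBM20, chr10:110644086-110644285, plus strand: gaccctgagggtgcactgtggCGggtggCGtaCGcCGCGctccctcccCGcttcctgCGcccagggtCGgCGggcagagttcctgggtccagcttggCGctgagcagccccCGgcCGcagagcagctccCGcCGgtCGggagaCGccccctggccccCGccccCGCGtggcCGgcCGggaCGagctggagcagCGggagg
The KHDRBS1 window held 26 CpG dinucleotides, the RBM20 window 23 and the KHDRBS2 window 10. Over 27304 promoter windows of the same length, 1 per gene, the median was 7. At least as many CpGs as in KHDRBS1 were present in 8.02% of these windows, at least as many as in RBM20 in 13.1%, and at least as many as in KHDRBS2 in 44.9%. The letters CANNTG (the E-box, searched on both strands) occurred at 2 places in the KHDRBS1 window, 1 in the KHDRBS2 window and 0 in the RBM20 window, against 55.2% of all windows with at least 1. The letters CATTCC (the core of TEAD sites) were on neither strand of the 3 windows, and 9.72% of all windows held them. The same held for the sequence AGATAA, bound by cardiac zinc finger factors, which 7.82% of all windows contained. The letters TATAAA were likewise on neither strand, and 7.79% of all windows contained them. The windows ended 51 bases before the start, so a TATAAA promoter element nearer the start would be missed. Whether these promoters hold one was not tested.

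KHDRBS3 was present in every wild-type library and had no read in any knockout library. It encodes a STAR protein that acts on alternative exons chiefly in brain, testis and muscle, and lies on chromosome 8 from 135457457 to 135656722 (plus strand, ENSG00000131773.13, protein-coding, GENCODE 29 on GRCh38). The wild-type libraries held 84, 337 and 216 reads (whole numbers recovered from the deposited values, which may be rounded estimates), which are 127, 257 and 138 normalized counts, or 174 ± 72.0 (SD, n = 3). The knockout libraries held 0, 0 and 0 reads, where a count of 0 allows up to 3 reads, or between 2.67 and 3.81 normalized counts. The genotypes did not overlap, and wild-type replicate 2 had the highest value. Against 3 reads in each knockout library the wild-type mean was at least 53.1-fold higher. The fitted log2 difference of KHDRBS3, -7.37, depends on the pseudocount and was -4.13 with a pseudocount of 10 and -10.69 with 0.1.

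KHDRBS2 had the opposite pattern. It is the closest paralog of KHDRBS3, known mainly from neurons, and lies on chromosome 6 from 61679960 to 62286227 (minus strand, ENSG00000112232.8). The wild-type libraries held 0, 1 and 0 reads and the knockout libraries 7, 86 and 104. In normalized counts the knockout values were 8.90, 95.9 and 92.4, or 65.7 ± 49.2 (SD, n = 3), with knockout replicate 1 far below the other two. The ratio of reads per unit of library factor was 248, with an exact 95% interval from 44.1 to 9862 that covers counting error only. Its fitted log2 difference was 5.21 with all libraries and 6.57 without wild-type replicate 2 and knockout replicate 1. With a pseudocount of 10 it was 2.52, and with 0.1 it was 7.71.

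KHDRBS1 stayed within a narrow band in all 6 libraries. Sam68, its product, is expressed in most tissues, and the gene lies on chromosome 1 from 32013829 to 32060850 (plus strand, ENSG00000121774.17). Its normalized counts were 5877, 5548 and 5801 in the wild type and 5415, 5125 and 4718 in the knockout. All knockout values were below all wild-type values, by a log2 difference of -0.18 with an SE of 0.17, and of -0.46 with equal totals. These differences are small beside those of its paralogs, as the plot of all genes by library shows.

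**Figure D1:**
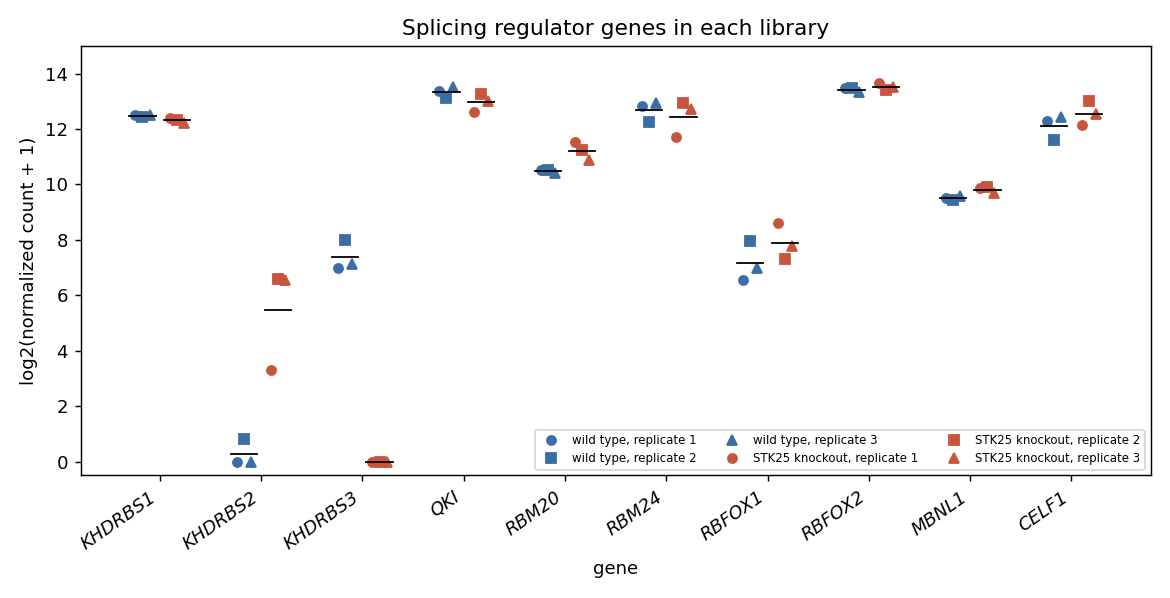
Log2(normalized count + 1) of the 10 splicing regulator genes (horizontal axis) in each library. Points are libraries, with 1 symbol per replicate number, blue for wild type and red for knockout, and black lines are group means on that scale. KHDRBS3 sits at 0 in the 3 knockout libraries and KHDRBS2 at or near 0 in the 3 wild-type libraries, while the fitted differences of the other 8 genes lie between -0.37 and 0.73.

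The makeup of the KHDRBS family was computed per kilobase of the longest coding transcript in GENCODE 29. KHDRBS1 made up 95.9% ± 1.74 of the family sum in the wild type and 98.5% ± 1.17 in the knockout (SD, n = 3 each). KHDRBS3 supplied 2.92%, 6.06% and 3.21% of it in the wild-type libraries. KHDRBS2 supplied 0.194%, 2.16% and 2.26% in the knockout libraries. KHDRBS1 thus made up most of the family sum in all 6 libraries.

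QKI, whose product binds ACUAA-containing sites and acts on muscle and heart exons, lies on chromosome 6 from 163414000 to 163578596 (plus strand). It had 10528, 8954 and 11652 normalized counts in the wild type and 6237, 9777 and 8366 in the knockout. The groups overlapped, with knockout replicate 2 above wild-type replicate 2. On the log2 scale the difference was -0.37 with an SE of 0.23. It was -0.19 without knockout replicate 1 and -0.65 with equal totals.

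RBM20 was higher in every knockout library than in any wild-type library. Its product represses exons of titin, and the gene lies on chromosome 10 from 110644397 to 110839469 (plus strand). The wild-type values were close together at 1476, 1475 and 1377 normalized counts, and the knockout values were 2932, 2428 and 1910. The knockout mean was 168% of the wild-type mean, with a log2 difference of 0.73 and an SE of 0.21. With all libraries scaled to equal totals, which lowers the median log2 difference of all genes from 0.01 to -0.27, the RBM20 difference was 0.44.

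RBM24, a regulator of sarcomere transcripts that the developing heart needs, did not separate the genotypes. It lies on chromosome 6 from 17281346 to 17293875 (plus strand). Its values were 7326, 4854 and 7810 normalized counts in the wild type and 3361, 7777 and 6712 in the knockout. The groups overlapped, and the low values were those of wild-type replicate 2 and knockout replicate 1. The log2 difference was -0.22 with an SE of 0.35. With 1 library left out it ran from -0.46 without knockout replicate 2 to 0.15 without knockout replicate 1. With equal totals it was -0.50.

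The RBFOX genes differed in level and in spread. RBFOX2, the main RBFOX gene here, lies on chromosome 22 from 35738736 to 36028425 (minus strand) and had 11380, 11344 and 10326 normalized counts in the wild type and 12831, 10857 and 11614 in the knockout. Its log2 difference was 0.09 with an SE of 0.18, and -0.19 with equal totals. RBFOX1, found in neurons and adult muscle, lies on chromosome 16 from 5239802 to 7713338 (plus strand). It had 93.6, 249 and 125 normalized counts in the wild type and 389, 156 and 220 in the knockout. The groups overlapped, and the highest value of each genotype was in wild-type replicate 2 and knockout replicate 1. Its log2 difference was 0.73 with an SE of 0.48, larger than that of MBNL1 but with overlapping groups. Leaving out replicate 1 of the wild type gave 0.43, leaving out its replicate 2 gave 1.13, and leaving out replicate 1 of the knockout gave 0.37. With equal totals it was 0.45.

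MBNL1, which promotes adult exon patterns and is sequestered in myotonic dystrophy, lies on chromosome 3 from 152243828 to 152465780 (plus strand). Its values were 728, 701 and 758 normalized counts in the wild type and 925, 954 and 819 in the knockout. The groups did not overlap, although the log2 difference was only 0.30 with an SE of 0.19, and 0.02 with equal totals. CELF1, which favours fetal exon patterns, lies on chromosome 11 from 47465933 to 47565569 (minus strand). It had 4983, 3083 and 5552 normalized counts in the wild type and 4515, 8170 and 5921 in the knockout. The groups overlapped, and the log2 difference was 0.45 with an SE of 0.30. Leaving out replicate 2 of the wild type gave 0.20, and leaving out replicate 2 of the knockout gave 0.23. Without replicate 1 of the knockout it was 0.66. Equal totals gave 0.17.

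Per kilobase of the longest coding transcript, the order of the wild-type means was RBM24, KHDRBS1, RBFOX2, QKI, CELF1, RBM20, MBNL1, KHDRBS3, RBFOX1 and KHDRBS2. RBM24 stood at 2465 ± 586 normalized counts per kb (SD, n = 3) and KHDRBS1 at 2083 ± 62.5, and their library ranges overlapped. RBFOX2 stood at 1589 ± 86.3, QKI at 1097 ± 143 and CELF1 at 592 ± 169, each with a range apart from its neighbours. RBM20, with a range from 190 to 204, was above MBNL1, with a range from 109 to 117. The range of MBNL1 lay within that of KHDRBS3 (87.9 ± 36.4), so these neighbours were not ordered beyond their spread. RBFOX1 had 32.7 ± 17.2 normalized counts per kb.

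In the knockout the first 7 places were the same, followed by RBFOX1, KHDRBS2 and KHDRBS3. The ranges of RBM24, KHDRBS1 and RBFOX2 then overlapped, as did those of QKI and CELF1, and those of RBFOX1 and KHDRBS2. The order depends on which transcript is taken as the length. With the median coding transcript, chosen after the data were seen, RBFOX2 came first in both genotypes, at 7476 and 7986 normalized counts per kb.

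**Figure D2:**
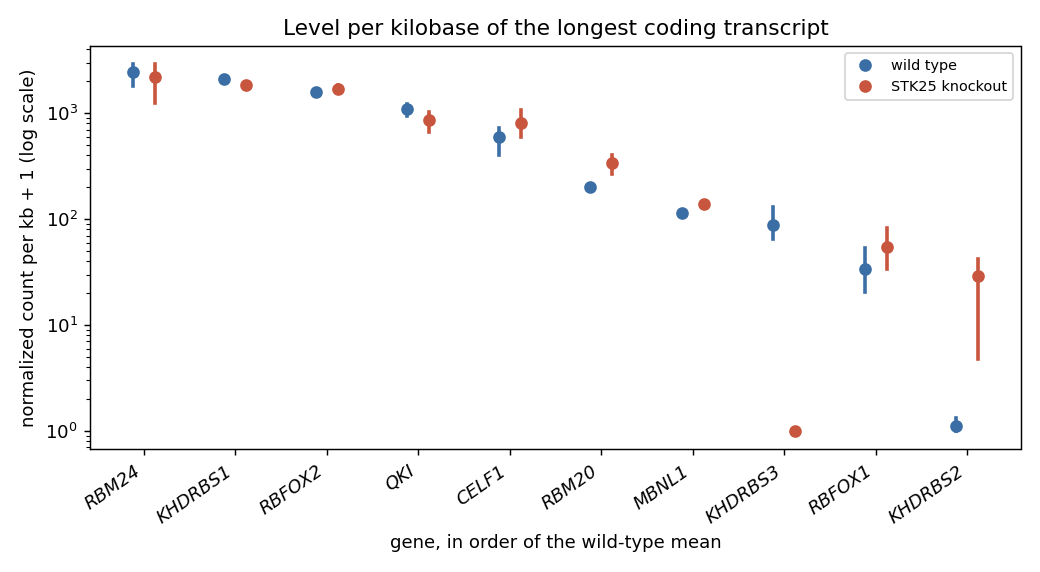
Normalized count per kb of the longest coding transcript plus 1, on a log scale, for the 10 genes in order of their wild-type mean. Points are means and lines run from the lowest to the highest of 3 libraries, blue for wild type and red for knockout. The first 7 genes keep their order, and KHDRBS3 goes from the place after MBNL1 to the last, below RBFOX1 and KHDRBS2.

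Within families, the share of a gene in the per-kilobase sum showed how paralogs balanced. Among the 6 CELF genes, CELF1 supplied 48.9%, 40.8% and 52.9% in the wild-type libraries and 55.8%, 65.6% and 60.1% in the knockout libraries, which did not overlap. CELF2, which shares targets with CELF1, had 4923 ± 468 normalized counts in the wild type and 3790 ± 673 in the knockout (SD, n = 3 each). Its log2 difference was -0.39 (SE 0.20, limma adjusted p = 0.264). Among the MBNL genes the share of MBNL1 was 47.2% ± 9.68 in the wild type and 40.6% ± 11.3 in the knockout (SD, n = 3 each), within the spread of the libraries. RBFOX1 supplied 1.99% ± 0.979 of the RBFOX sum in the wild type and 2.97% ± 1.11 in the knockout (SD, n = 3 each), and these values overlapped.

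Across the table, limma called 12.8% of 15536 tested genes at an adjusted p under 0.05, 927 higher and 1055 lower in the knockout (46.8% higher, and 27.4% higher with equal totals). The number called, 1982 in all, depended on single libraries. Leaving out wild-type replicate 1 gave 796 calls and leaving out replicate 3 gave 916. Dropping replicate 2 of the knockout gave 1292, and dropping its replicate 3 gave 962. All 10 splicing regulators were among the genes tested, and 2 of them, KHDRBS2 (higher) and KHDRBS3 (lower), were past that threshold. The background for one direction was 5.97% for higher and 6.79% for lower. The genotypes did not overlap in 5 of the 10, namely KHDRBS2, RBM20 and MBNL1 above and KHDRBS1 and KHDRBS3 below the wild type, against 33.4% of all tested genes. Since this contrast chose the genes, nothing is read from these counts. Their median log2 difference was 0.20, and that of all tested genes was 0.01.

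**Figure D3:**
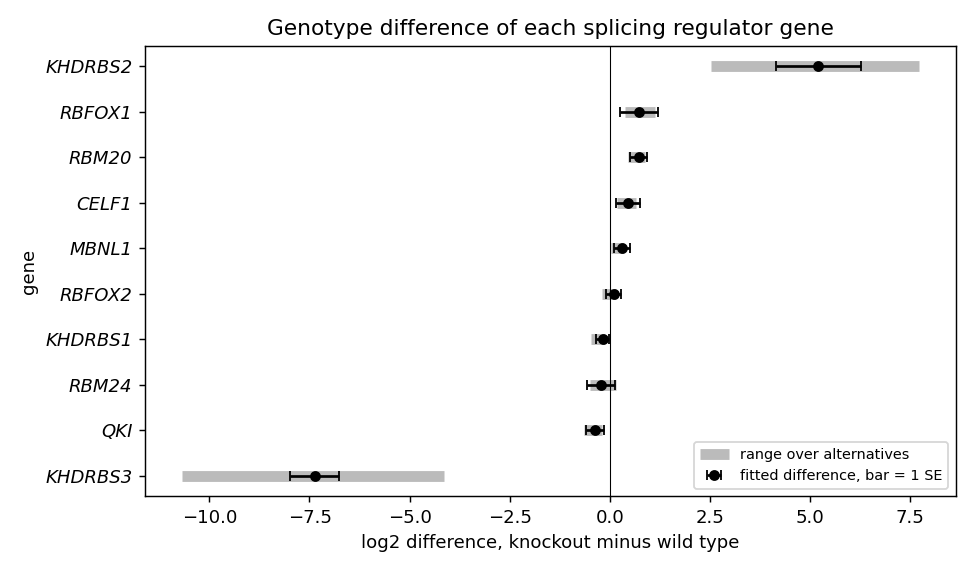
Fitted log2 difference, knockout minus wild type, of each of the 10 genes, ordered by value. Points with black bars are the limma estimate and 1 SE, and grey bars span the values under the alternative settings. The estimates of KHDRBS2 (5.21) and KHDRBS3 (-7.37) lie far from 0 but depend on the pseudocount, from 2.52 to 7.71 and from -10.69 to -4.13 over the alternatives, and those of the other 8 genes lie between -0.37 and 0.73.

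The spread within genotypes differed among the genes. KHDRBS1, RBM20 and MBNL1 had coefficients of variation of 3.00%, 3.93% and 3.92% in the wild type, where the median over all tested genes was 25.3%. RBFOX1 reached 52.7%, KHDRBS3 41.4%, CELF1 28.5% and RBM24 23.8%. In the knockout the coefficients were 74.9% for KHDRBS2, 47.1% for RBFOX1, 38.7% for RBM24 and 29.7% for CELF1, against a median of 28.8% over all tested genes. Below that median were QKI with 21.9%, RBM20 with 21.1%, RBFOX2 with 8.46%, MBNL1 with 7.94% and KHDRBS1 with 6.88%. Wild-type replicate 2 had the lowest wild-type value in 5 of the 10 genes and the highest in 3. Knockout replicate 1 had the lowest knockout value in 4 and the highest in 4. For KHDRBS2 the highest wild-type value was 1 read. The shares over all tested genes are not given here, so nothing is read from these counts. QKI, RBM24 and CELF1 were low in both of these libraries, by log2 deviations of -0.20, -0.43 and -0.51 in wild-type replicate 2 and -0.36, -0.74 and -0.42 in knockout replicate 1. RBFOX1 was high in both, by 0.80 and 0.71. The part of transcript length or RNA quality in these deviations was not tested.

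**Figure D4:**
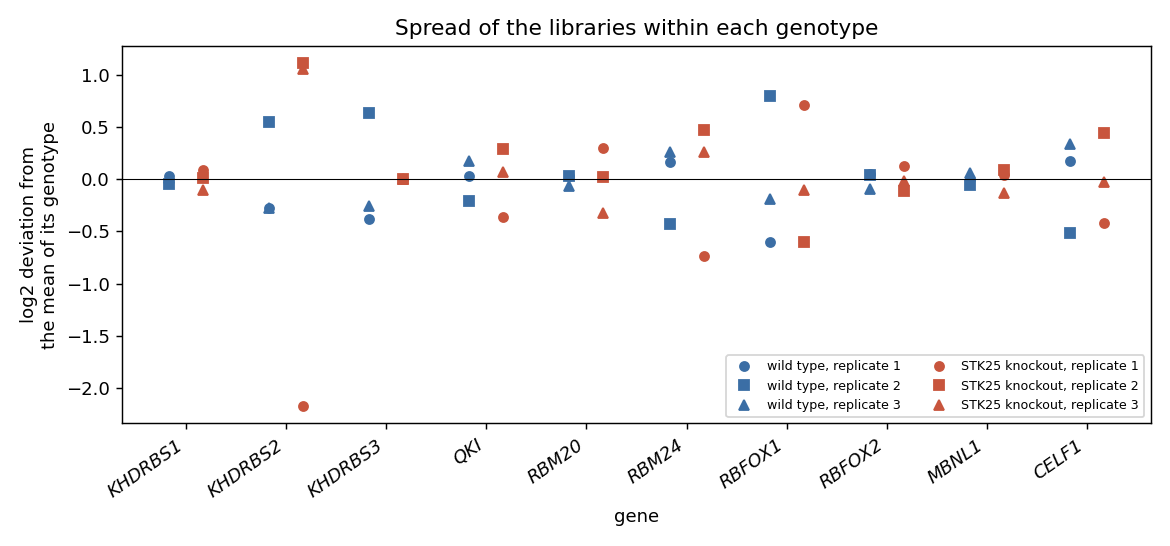
Log2 deviation of each library from the mean of its own genotype, for the 10 genes, with blue for wild type, red for knockout and 1 symbol per replicate number. QKI, RBM24 and CELF1 are low and RBFOX1 is high in wild-type replicate 2 (blue squares) and knockout replicate 1 (red circles), and KHDRBS1 and MBNL1 stay near 0.

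The other genes of the splicing machinery were then compared in 4 lists that hold none of the 10 regulators. They were 36 other regulators, 12 SR proteins, 20 hnRNP proteins and 36 core spliceosome proteins. The list of other regulators is labelled tissue-specific in the figure but is not limited to tissue-specific genes. Of these 104 genes 100 were tested, and limma called 5 (5%, against 12.8% of all tested genes), with 0 higher and 5 lower. At an unadjusted p under 0.05 there were 3 higher and 8 lower genes of the 100, and 4275 of all 15536. The median log2 difference over the 100 genes was -0.12. edgeR on the recovered reads called 0 higher and 4 lower of them among 1864 genes in all, and DESeq2 called 1 higher and 6 lower among 3210. The count of 5 rests on single libraries, since it was 0 without wild-type replicate 1, knockout replicate 2 or knockout replicate 3, and 1 without wild-type replicate 2 or 3.

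SR proteins, which bind exonic enhancers, had 2 of 12 genes past the threshold (16.7%, against 12.8% of all tested genes) and a median log2 difference of -0.33. SRSF6 fell, with a wild-type mean of 3011 ± 362 and a knockout mean of 1607 ± 93.6 normalized counts (SD, n = 3). Its fitted log2 difference was -0.90 (SE 0.18, limma adjusted p = 0.0179). SRSF8 fell, with a wild-type mean of 1297 ± 73.0 and a knockout mean of 776 ± 41.5 normalized counts (SD, n = 3). The log2 difference was -0.74 (SE 0.18, limma adjusted p = 0.0378). SRSF6 lost its call without wild-type replicate 1 or 3 or knockout replicate 2 or 3, with limma adjusted p-values from 0.0524 to 0.0854. SRSF8 lost it without any 1 of these or wild-type replicate 2, with limma adjusted p-values from 0.0692 to 0.170, and also with no filter (0.0519), equal upper quartiles (0.0540) and no trend in eBayes (0.0590).

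The hnRNP proteins, which often silence exons, had 2 of 20 genes past the threshold (10%, against 12.8% of all tested genes). Their median log2 difference was -0.24, against 0.01 over all tested genes. Of the 20, 17 were negative, but these include values near 0, such as HNRNPL at -0.01 (SE 0.18) and HNRNPUL1 at -0.03 (SE 0.19). HNRNPAB fell, with a wild-type mean of 5650 ± 835 and a knockout mean of 3013 ± 308 normalized counts (SD, n = 3). On the log2 scale the difference was -0.90 (SE 0.19, limma adjusted p = 0.0221). HNRNPR fell, with a wild-type mean of 7819 ± 535 and a knockout mean of 4725 ± 551 normalized counts (SD, n = 3). This is a log2 difference of -0.73 (SE 0.18, limma adjusted p = 0.0365). HNRNPAB lost its call without wild-type replicate 1 or 2 or knockout replicate 2 or 3, with limma adjusted p-values from 0.0541 to 0.118, and with no trend in eBayes (0.0517). HNRNPR lost it without any 1 of the 6 libraries, with limma adjusted p-values from 0.0508 to 0.142, and also with no filter (0.0563) and no trend in eBayes (0.0749).

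Among the 32 tested genes in the list of other regulators only RBM5, a regulator of apoptosis gene exons, passed with limma. It fell, with a wild-type mean of 3917 ± 262 and a knockout mean of 2515 ± 197 normalized counts (SD, n = 3). Its fitted log2 difference was -0.64 (SE 0.17, limma adjusted p = 0.0497). It lost its call under 11 of 18 alternatives, with adjusted p-values from 0.0503 to 0.242 (limma, and 0.0516 with edgeR). Among these 11 was leaving out any library other than knockout replicate 1. Of the 36 core spliceosome genes limma, edgeR and DESeq2 each called 0, with 1 higher and 0 lower at an unadjusted p under 0.05 in limma, and their median was 0.04.

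**Figure D5:**
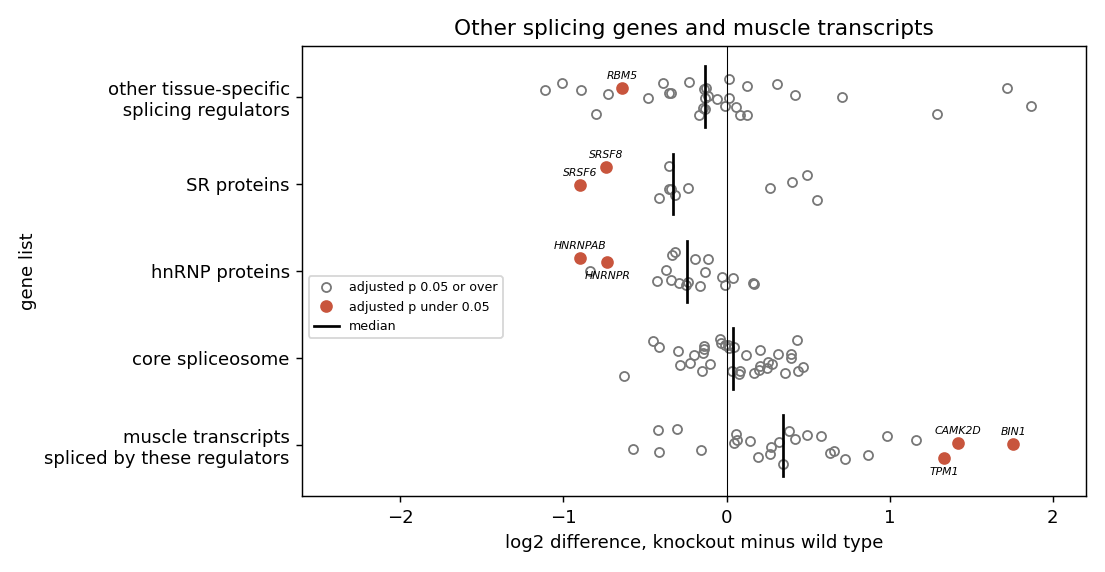
Log2 difference, knockout minus wild type, of the tested genes of 4 lists of other splicing genes and 1 list of muscle transcripts (rows). Each point is a gene, filled and named where the limma adjusted p was under 0.05, spread vertically at random, and black lines are medians. The called splicing genes all lie below 0, and the medians run from -0.33 for SR proteins to 0.35 for muscle transcripts.

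Muscle transcripts that these regulators are known to splice were listed as well, as gene totals. Of the 27 tested genes reported here, 3 rose (11.1%, against 5.97% of all tested genes called higher), and the median log2 difference was 0.35. BIN1, a membrane-tubule protein with a muscle-specific exon, rose, with a wild-type mean of 418 ± 37.7 and a knockout mean of 1421 ± 224 normalized counts (SD, n = 3). The log2 difference was 1.76 (SE 0.21, limma adjusted p = 0.00237). It was past the threshold in all 18 alternatives. CAMK2D, a calcium/calmodulin kinase and RBM20 target, rose, with a wild-type mean of 6164 ± 1744 and a knockout mean of 16600 ± 5307 normalized counts (SD, n = 3). On the log2 scale the difference was 1.42 (SE 0.32, limma adjusted p = 0.0273). It lost its call without wild-type replicate 1, 2 or 3 or knockout replicate 2 or 3, with limma adjusted p-values from 0.0624 to 0.105, and also with equal totals (0.116) and no trend in eBayes (0.0592).

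TPM1, which encodes a tropomyosin, rose by a log2 difference of 1.33 (SE 0.35, limma adjusted p = 0.0472), from between 309357 and 415499 normalized counts in the wild type to between 717041 and 1124939 in the knockout. TPM1 lost its call without wild-type replicate 1, 2 or 3 or knockout replicate 2 or 3, with limma adjusted p-values from 0.0675 to 0.224, and also with a pseudocount of 10 (0.0620), no filter (0.227) and equal upper quartiles (0.153). TTN, the main RBM20 target, had 61455, 44262 and 41954 normalized counts in the wild type and 83722, 75476 and 70726 in the knockout. Its log2 difference was 0.66 (SE 0.24, limma adjusted p = 0.124).

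The genes whose profile over the 6 libraries was most like that of KHDRBS3 were FXYD6, TMEM176A, LCN9, SLC30A3 and TCTEX1D1, out of 13035 with a mean of at least 50. Pearson's r of log2(value + 1) with KHDRBS3 ran from 0.99900 to 0.99978 and is given as a description, since 2 separate groups of 3 libraries make up the points. LCN9 and TCTEX1D1 also had no read in any knockout library. LCN9 had 87.6, 151 and 121 normalized counts in the wild type, and TCTEX1D1 had 147, 205 and 151. TMEM176A had 501, 855 and 450 in the wild type and 5.08, 5.57 and 5.33 in the knockout.

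The nearest tested neighbours of KHDRBS3 were looked at after its values were seen, 2 on each side in GENCODE 29. ZFAT, a zinc finger gene that ends 744 kb before it, had a log2 difference of 0.56 (SE 0.35, limma adjusted p = 0.356). ST3GAL1, a sialyltransferase gene 1886 kb before it, had 982, 995 and 1037 normalized counts in the wild type and 6.36, 6.69 and 18.7 in the knockout. It fell by 6.60 on the log2 scale (SE 0.45, limma adjusted p = 0.000225). On the other side TRAPPC9 had a log2 difference of -0.45 (SE 0.49) and CHRAC1 of 0.28 (SE 0.23), with limma adjusted p-values of 0.617 and 0.490. ST3GAL1 was the 1 of these 4 neighbours past the threshold, where 12.8% of all tested genes were. Nothing about the region is read from so few genes. Around RBM20, chosen the same way, PDCD4 (32.3 kb after it) fell by 2.00 on the log2 scale (SE 0.25, limma adjusted p = 0.00268) and DUSP5 fell by 0.82 (SE 0.19, limma adjusted p = 0.0307). SMC3 and BBIP1, the other two beside RBM20, had log2 differences of 0.35 and 0.32 (limma adjusted p = 0.362 and 0.648). None of the 4 neighbours of KHDRBS2 passed the threshold.

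Several of these regulators are also expressed in neurons or smooth muscle, and markers of other cell types were compared. The 8 neural markers summed to between 418 and 539 normalized counts in the wild type and between 949 and 1205 in the knockout, and 2 of 6 tested rose, TUBB3 and SOX2. DCX was at 7.55, 3.05 and 1.91 normalized counts in the wild type and 0, 0 and 0.889 in the knockout. The 6 smooth muscle markers summed to between 81840 and 91696 in the wild type and between 494465 and 544402 in the knockout, and 5 of 6 rose. MYH11 went from 314, 152 and 295 to 7561, 9796 and 8121 normalized counts. The 5 endothelial markers summed to between 139 and 465 in the wild type and between 367 and 545 in the knockout, with 0 of 3 tested past the limma threshold. Of 7 fibroblast markers 2 rose and 1 fell, with sums between 12893 and 26523 in the wild type and between 7662 and 16208 in the knockout. Of 5 epithelial markers 2 rose and 1 fell, with sums between 125039 and 132756 in the wild type and between 281827 and 313383 in the knockout. Most of these sums came from the keratins KRT8 and KRT18, which rose, from means of 65505 to 144870 and of 49054 to 150037. KRT19 fell, from a mean of 12908 to 4910. EPCAM, with means of 1414 and 1204, and CDH1, with 12.2 and 18.0, overlapped between the genotypes. Of 6 endoderm markers 3 were tested and 1, AFP, fell, with sums between 1659 and 3003 in the wild type and between 1191 and 1248 in the knockout. Of 4 pluripotency markers 3 were tested and 0 were called. Beside all these counts, limma called 5.97% of all tested genes higher and 6.79% lower. The part of these markers in the values of KHDRBS2, KHDRBS3 and RBM20 was not tested.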

How the data were processed

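RNA was measured in 6 libraries, 3 per genotype. The authors deposited 1 table whose values are a signal called normalized counts. Per the submitters' processing notes, bcl2fastq 2.19, kallisto 0.44.0, DESeq2 1.28.1 and the build GRCh38 were used; the annotation and strand setting are not given in the sources used here. In every library 100% of the deposited values were whole multiples of 1 step (tolerance 0.01), so whole reads were recovered. Kallisto gives estimated counts that need not be whole, and whether they were rounded is not given in the sources used here, so these reads, and the floors and intervals built on them, may rest on rounded estimates. Per the labels' protocols, column-purified RNA with DNase digestion was turned into cDNA with a low-input kit and into libraries by tagmentation. Reads without molecular identifiers may include PCR copies, so floors of 3 reads and intervals cover counting error only. Replicates differed by more than sampling noise, with a chi-square of 18.9 to 363 times its degrees of freedom.

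Genotypes were compared in R 4.3.3 with limma 3.58.1 (lmFit, eBayes with a trend) on log2(value + 1), keeping genes whose mean over all libraries reached 10, with no covariate and Benjamini-Hochberg adjustment over all 15536 genes. This scale understates the change of low genes. Alternatives used edgeR 4.0.16 and DESeq2 1.42.0 on the recovered reads, other pseudocounts, filters and scalings, the replicate number as a block, and each library left out. The script was tested on simulated data without the library effects seen here, so that test gives no error rate for these data. Figures used Python 3.11.15 and matplotlib 3.10.9.

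The genes and lists were chosen with earlier results of these data known. Named were all 10 regulators, up to 8 called genes per list, and the 5 profiles most like KHDRBS3 by Pearson's r. CELF2, TTN, STK25, marker genes and neighbours were named after their values were seen. 1 gene of the muscle transcript list is not reported here and was left out of its counts.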

Additional observations from a re-analysis of the deposited data

How the results depend on the processing

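The 8 regulators other than RBM24 and RBFOX2 kept the sign of their log2 difference under each alternative tried, 17 for KHDRBS2, which a mean of at least 50 removes, and 18 for the others. RBM24 ranged from -0.46 to 0.15 with 1 library left out, 0.15 being the value without knockout replicate 1, and RBFOX2 turned to -0.19 with equal totals. The number of genes past the threshold was 1982, and from 796 to 2181 with 1 library left out. It was 3210 with DESeq2 (1979 of the 1982 among them), 798 with the replicate block, and 4483 without wild-type replicate 2 and knockout replicate 1 (chosen after seeing the data). With transcript length trends removed, also chosen after seeing the data, it was 2875.

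Of the other splicing genes, 5 were lower: 2 with no filter on low values, 3 with equal upper quartiles, 1 with eBayes without a trend, 0 with the replicate block, from 0 to 5 with 1 library left out, and 13 without both libraries named above. The number higher was 0, and 1 with DESeq2, from 0 to 1 with 1 library left out, 4 without both libraries and 2 with length trends removed. With the replicate block the 5 had limma adjusted p-values from 0.116 to 0.242, CAMK2D 0.0979, TPM1 0.272 and BIN1 0.0216. The cause of these shifts was not tested. Deviations of same-numbered libraries correlated at -0.23, -0.40 and 0.17, and those of wild-type replicate 2 and knockout replicate 1 at 0.45. With 3 libraries per genotype these values cannot tell whether libraries of the same number were prepared together. Depth limits KHDRBS3 in the knockout, KHDRBS2 in the wild type and RBFOX1, with as few as 62 reads in a library.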
